A study of Arabidopsis thaliana with 6 samples.

Results

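The genes described here encode subunits of eIF3, the largest of the translation initiation factors, and among them is EIF3K, the gene disrupted in the mutant under study. They were chosen as the listed eIF3 subunit genes that have a named probe set on the ATH1 array, an oligonucleotide array for Arabidopsis thaliana. All 9 listed genes had a probe set, out of 22746 probe sets tested. The platform annotation named 5 of them (AT5G15610, AT3G02200, AT1G66070, AT4G20980 and AT5G44320), and the other 4 (EIF3K, TIF3H1, EIF3G1 and TIF3C2) took their names from the study's supplement, which pairs probe sets with loci. A further 12 eIF3 subunit genes, which include those for subunits a, b, e, f, i and l, had no named probe set here and were not analysed.

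Total RNA was compared between 3 arrays of the eif3k mutant and 3 arrays of the wild type (WT). The eif3k plants were Columbia seedlings with a T-DNA insertion in intron 6 of EIF3K, and the WT plants were Columbia seedlings without it. In both genotypes the aerial part of seedlings aged 11 days was used. Per the labels, the growth medium had 0.8% agar and 1% sucrose, days had 16 h of light at 22 °C, and the harvest took place 4 h after the light came on. The study's methods give continuous light for the mutant instead, and the sources used here do not settle which was applied. The mutant rests on a single insertion line, and the study's methods describe a transcript that lacks the 3′ end, with no full-length form and no obvious seedling phenotype. No source used here gives the place of the EIF3K probes relative to the insertion, so the probe set measures the transcript parts its probes bind and need not measure the full-length form. The arrays have an earlier date for replicates 1 and 2 and a later date for replicate 3, alike in both genotypes. The design text calls the replicates biological.

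Translation initiation in eukaryotes begins when the small ribosomal subunit joins with initiation factors to form a 43S complex, which then binds an mRNA and scans for its start codon. eIF3 is the scaffold of that complex: it holds the small subunit, the initiator tRNA carried by eIF2, and the mRNA together. Several of its subunits, eIF3k among them, share a fold called the PCI domain, and eIF3h has the related MPN domain. The same domains build the COP9 signalosome and the lid of the 26S proteasome. Subunits k and l sit at the edge of the complex and are dispensable for growth in some organisms, such as the fungus Neurospora, whereas eIF3h of Arabidopsis is known for the translation of mRNAs with upstream open reading frames.

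The deposited values are log2 signals with a floor of 2.25, the lowest value of any probe set tested. Some dim probe sets stayed nearly flat just above it, such as that of AT4G33310 at 2.41 to 2.45. Counts at the floor thus need not hold every probe set without signal. The highest signal was 15.55. The median signal per array lay between 4.02 and 4.12, and between 25.5% and 26.8% of probe sets were at the floor of an array. RCA, which encodes the photosynthetic Rubisco activase, had a signal between 14.88 and 15.06 on all arrays, and the root hair gene EXPA7 lay at or next to the floor, between 2.25 and 2.26. Of the marker lists, 1 of 4 green tissue genes, 2 of 5 root genes and 1 of 3 seed genes were matched. The other root marker, PYK10, had signals of 10.87, 11.44 and 11.61 in eif3k and 10.62, 10.40 and 11.42 in WT. CRA1, a seed storage protein gene, had signals of 2.86, 7.58 and 7.43 in eif3k and 2.62, 2.98 and 8.93 in WT, so that 3 of the 6 arrays had a high seed transcript. The control for the large ribosomal RNA probe set stood at 8.13 on eif3k replicate 3, against 12.04 to 12.87 on the other 5 arrays. Its part, and that of the seed transcript, in the results below was not tested.

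The first question was whether the transcript of the disrupted gene differed between the genotypes. EIF3K (AT4G33250, on chromosome 4) had log2 signals of 6.81, 6.62 and 7.52 in eif3k, against 8.82, 9.18 and 8.89 in WT. Every mutant array lay below every WT array, and the mutant array closest to WT was replicate 3. Groups that did not overlap, with eif3k lower, were found for 2.31% of all probe sets. The means were 6.98 ± 0.47 in eif3k and 8.96 ± 0.19 in WT (SD, n = 3 each).

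The log2 difference of EIF3K was -1.98 with a standard error of 0.28, a signal 3.94-fold lower in eif3k. The 95% interval was -2.74 to -1.22, which places the mutant signal between 0.15 and 0.428 of that of WT. The unadjusted p of the limma test was 0.00152, and 1.57% of all probe sets were lower in eif3k with an unadjusted p under 0.05. After Benjamini-Hochberg adjustment over all 22746 probe sets the limma p was 0.864, so EIF3K did not pass the threshold of an adjusted p under 0.05 and at least 2-fold. No probe set did (0%), with or without the fold criterion, and the smallest adjusted p of any was 0.243, while 694 probe sets (3.05%) had an unadjusted limma p under 0.05. In bulk tissue, fewer cells with a transcript and less of it per cell cannot be told apart.

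By size, the EIF3K difference was near the end of the distribution. A difference at or below it was found for 2 probe sets, EIF3K included (0.00879%). In the same-numbered pairs of arrays the EIF3K differences were -2.01, -2.56 and -1.37. All 3 pairs were thus at least 2-fold lower in eif3k, which held for 3 probe sets in all (0.0132%). With the replicate number as a block in the limma fit, the difference was again -1.98, with a standard error of 0.31 and an adjusted p of 0.864.

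**Figure D1:**
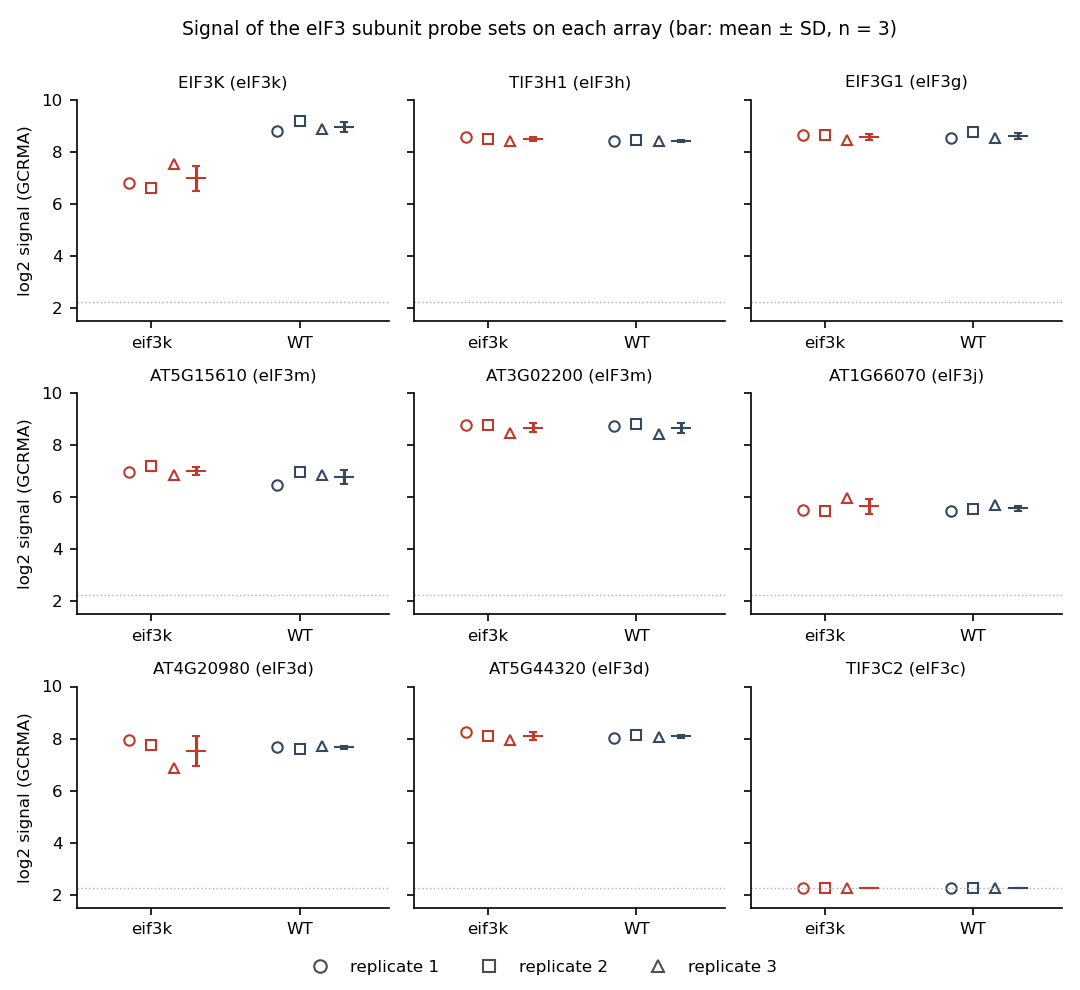
log2 signal (GCRMA) of the 9 eIF3 probe sets on each array, with eif3k in red on the left and WT in blue on the right of each panel. Open symbols are arrays, the bar is the mean with its SD (n = 3), and the dotted line is the floor of 2.25. The mutant arrays of EIF3K lay between 6.62 and 7.52, below the WT arrays at 8.82 to 9.18, the groups overlapped for the other 7 genes above the floor, and TIF3C2 lay at the floor on all 6 arrays.

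EIF3K was also set against the other subunit genes within each array, which leaves out a shift of the whole array. Relative to the median of the 7 other members above the floor, EIF3K had log2 values of -1.46, -1.47 and -0.43 in eif3k, against 0.78, 1.04 and 0.82 in WT. EIF3K was below that median on each mutant array and above it on each WT array. The levels of different probe sets are not on a common scale, so only the change in this value between genotypes can be read. The means of this value were -1.12 ± 0.60 in eif3k and 0.88 ± 0.14 in WT (SD, n = 3 each), and the 2-sided exact permutation test gave p = 0.1, the smallest value that 3 arrays against 3 allow. The median of the 7 other members itself had log2 values of 8.27, 8.09 and 7.95 in eif3k and 8.04, 8.14 and 8.07 in WT, a difference of 0.02 (exact permutation test, 2-sided, p = 0.8).

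Of the other 8 members, 7 had a signal above the floor and 1, TIF3C2, did not. None of the 7 passed the threshold, and no other probe set did. None reached an unadjusted p under 0.05 (3.05% of all probe sets did). In none were the groups separate, which held for 2.31% of all probe sets with eif3k lower and for 2.71% with eif3k higher. A count of 0 of 7 is thus near the background in each respect. In detail, 5 were higher and 2 lower in eif3k, and their differences ranged from -0.14 to 0.25 with a median of 0.02, beside a median of 0.00 over all probe sets. Among all probe sets not at the floor on every array, 48.2% were higher in eif3k and 80.2% differed by no more than 0.25 in either direction. The smallest unadjusted p among the 7 was 0.212. For each of the 7, the 95% interval of the difference lay within 2-fold in either direction, so a change of EIF3K's size falls outside the interval of each of them.

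TIF3H1 (AT1G10840, on chromosome 1) encodes eIF3h. Its log2 signals were 8.56, 8.50 and 8.40 in eif3k, against 8.41, 8.46 and 8.40 in WT. The groups overlapped, since replicate 3 had the same signal in both genotypes. This was the member with the narrowest interval: the difference was 0.06 (SE 0.05), and the interval ran from -0.07 to 0.19, or from 0.956-fold to 1.14-fold of WT (limma, adjusted p = 1).

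EIF3G1 (AT3G11400, on chromosome 3) encodes eIF3g, an RNA-binding subunit that in yeast forms a module with eIF3b and eIF3i. Its log2 signals were 8.66, 8.64 and 8.44 in eif3k, against 8.53, 8.76 and 8.53 in WT. The lowest of the 6 arrays was eif3k replicate 3 and the highest was WT replicate 2, and the groups overlapped. Its genotype difference was -0.03 (SE 0.10) with an interval from -0.29 to 0.24, and its sign turned with the setting, being 0.01 on the first array date alone and 0.01 with array weights.

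The subunit eIF3m, another PCI protein, is represented by a pair of genes, AT5G15610 on chromosome 5 and AT3G02200 on chromosome 3. AT5G15610 had log2 signals of 6.99, 7.19 and 6.86 in eif3k, against 6.48, 6.98 and 6.84 in WT. The groups overlapped, and WT replicate 1 was the lowest of the 6 arrays. AT5G15610 had the largest positive difference among the members, 0.25 with a standard error of 0.17 (1.19-fold), and was higher in eif3k in 3 of 3 pairs, by 0.51, 0.21 and 0.02. Its interval ran from -0.21 to 0.70, and its unadjusted p of 0.212 in the limma test missed the threshold, as did its adjusted p of 1.

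AT3G02200 had log2 signals of 8.79, 8.78 and 8.47 in eif3k, against 8.73, 8.82 and 8.42 in WT. In both genotypes replicate 3 was the lowest array, and the genotypes overlapped. The genotype difference was 0.02 with a standard error of 0.15 and an interval from -0.39 to 0.43, and it was -0.01 after each array was centred on its median. Whether the probe sets of this gene pair bind each other's transcripts was not tested, since their sequences were not used here.

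**Figure D2:**
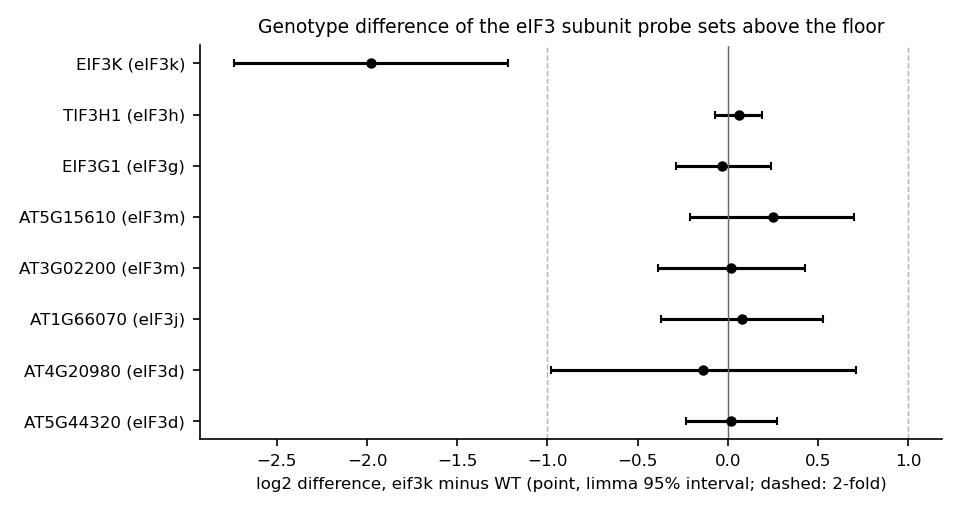
Genotype difference (log2, eif3k minus WT) of the 8 eIF3 probe sets above the floor. Points are limma estimates from 3 arrays a group, bars are 95% intervals and dashed lines mark 2-fold in each direction. The interval of EIF3K, -2.74 to -1.22, lies below the 2-fold line, and the intervals of the other 7 include 0 and lie between the 2-fold lines.

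AT1G66070 (on chromosome 1) encodes eIF3j, a subunit that is loosely bound to the rest of eIF3 in yeast and mammals. Its log2 signals were 5.51, 5.47 and 5.98 in eif3k, against 5.48, 5.54 and 5.70 in WT. Replicate 3 was the highest array of each genotype, and the groups overlapped. The genotype difference was 0.08 with a standard error of 0.17 and an interval from -0.37 to 0.53, and it was -0.02 on the first array date alone.

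The subunit eIF3d, which in human cells can bind the cap of certain mRNAs, is represented by AT4G20980 on chromosome 4 and AT5G44320 on chromosome 5. AT4G20980 had log2 signals of 7.94, 7.76 and 6.88 in eif3k, against 7.67, 7.59 and 7.73 in WT. Replicates 1 and 2 of eif3k were above all WT arrays, and eif3k replicate 3 was the lowest array by a wide margin. The SD was 0.57 in eif3k and 0.07 in WT. The genotype difference was -0.14 with a standard error of 0.32 and an interval from -0.98 to 0.71, the widest of the 7. Without eif3k replicate 3 it was 0.19, with the opposite sign. That array was also the one with the low ribosomal RNA control signal, and the part of that control in this value was not tested.

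AT5G44320 had log2 signals of 8.27, 8.09 and 7.95 in eif3k, against 8.04, 8.14 and 8.07 in WT. The mutant arrays held both the highest and the lowest value and enclosed those of WT. It differed by 0.02 between genotypes, with a standard error of 0.09 and an interval from -0.23 to 0.27, and it was -0.02 after median centring. Whether the probe sets of the eIF3d genes bind each other's transcripts was not tested.

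TIF3C2 (AT3G22860, on chromosome 3), a paralog of the gene for the PCI subunit eIF3c, was listed at the floor of 2.25 on all 6 arrays. Differences between genotypes cannot be seen at the floor, and no test is given. This probe set was not alone in that respect, since 4662 probe sets had the floor value on every array.

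The members were then compared across the array dates. Averaged over both genotypes, AT3G02200 was lower on the later date by a log2 difference of -0.34 (SE 0.03) and AT1G66070 was higher by 0.34 (SE 0.08). Their unadjusted limma p for date was 0.00106 and 0.0221, but the p adjusted over all probe sets was 0.076 and 0.239, and no member had an adjusted p under 0.05 for date. Over all probe sets, 14.6% had an unadjusted p under 0.05 for date and 0.334% passed with at least 2-fold. The control probe sets for RNA quality also varied between arrays, but not in a common direction. The 3′ minus 5′ log2 difference of the ubiquitin control was 1.74, 1.68 and 2.23 in eif3k and 1.64, 1.72 and 2.24 in WT, highest on replicate 3 of each genotype. Another ubiquitin control was likewise highest on replicate 3 of each genotype. For the GAPDH control it was 4.09, 4.09 and 3.92 in eif3k and 4.17, 4.18 and 5.02 in WT, highest on WT replicate 3 and lowest on eif3k replicate 3. Another GAPDH control gave a different order, with its 3′ minus 5′ difference highest on eif3k replicate 3. Its 3′ and 5′ signals were 11.43 and 10.57 on that array, against 10.44 and 9.87 on WT replicate 3. For the actin control, the 3′ minus middle difference was 0.96, 0.95 and 0.72 in eif3k and 1.08, 1.10 and 1.04 in WT, lower on each mutant array than on each WT array. Another actin control did not repeat this, and its 3′ minus middle differences overlapped between genotypes. Its 3′ and middle signals were 11.96 and 10.24 on eif3k replicate 3, against 11.58 and 10.18 on WT replicate 1. The part of these controls in the date and genotype differences was not tested. For AT3G02200 and AT1G66070 the date difference exceeded the genotype difference in size, which was 0.02 for the eIF3m gene and 0.08 for the eIF3j gene. For the other members above the floor, the date differences were 0.35 (SE 0.28) for EIF3K, -0.08 (SE 0.04) for TIF3H1 and -0.16 (SE 0.08) for EIF3G1. They were -0.06 (SE 0.20) for AT5G15610, -0.44 (SE 0.30) for AT4G20980 and -0.12 (SE 0.09) for AT5G44320. In size these also exceeded the genotype differences of TIF3H1, EIF3G1, AT4G20980 and AT5G44320, but not those of EIF3K and AT5G15610. The genotypes did not share the date differences of AT4G20980 and EIF3K. Replicate 3 of AT4G20980 was the lowest array in eif3k, at 6.88, but the highest in WT, at 7.73. Replicate 3 of EIF3K was the highest in eif3k, at 7.52, but lay between the others in WT, at 8.89.

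On eif3k replicate 3, 6 of the 7 other members were lower than on both other eif3k arrays, and on WT replicate 3 this held for 2 of 7. The share over all probe sets was not computed, so these counts cannot be read as particular to the eIF3 genes. The exception on the mutant array was AT1G66070. EIF3K, too, was higher on eif3k replicate 3 than on the other mutant arrays. The later date held 1 array of each genotype, so the later date and a single array cannot be told apart within a genotype.

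The genotype differences were also estimated on each date. For EIF3K, the first date alone gave -2.28 (SE 0.19, limma adjusted p = 0.496), and the later pair gave -1.37. The difference between dates was 0.91 (SE 0.32, limma adjusted p = 0.484). For AT4G20980, the first date alone gave 0.22 (SE 0.09) and the later pair gave -0.85, so the sign turned. The difference between dates was -1.07 (SE 0.16), with an unadjusted limma p of 0.0131 and an adjusted p of 0.175. For AT1G66070 the difference between dates was 0.30, with an unadjusted limma p of 0.0239 and an adjusted p of 0.255. Unadjusted p under 0.05 for this term was found for 13.9% of all probe sets and adjusted p under 0.05 for 3.67%, and no member reached the latter.

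**Figure D3:**
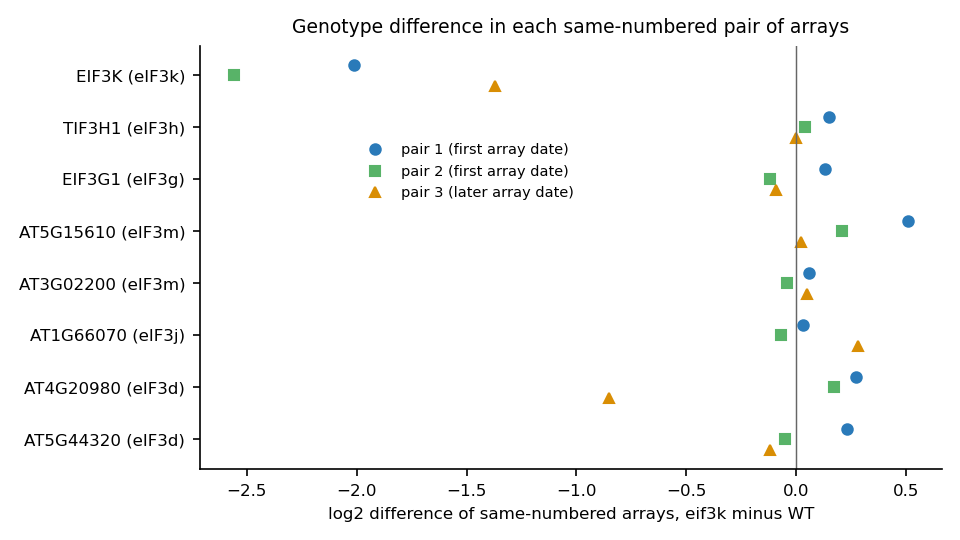
log2 difference between the same-numbered eif3k and WT arrays (eif3k minus WT) for the 8 eIF3 probe sets above the floor. Circles are pair 1, squares pair 2 (both on the first array date) and triangles pair 3 (later date). The EIF3K pairs are at -2.01, -2.56 and -1.37, and the pair farthest from 0 among the other members is pair 3 of AT4G20980, at -0.85.

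The members differed in how closely arrays of 1 genotype resembled each other. The residual SD was 0.36 for EIF3K and between 0.06 (TIF3H1) and 0.40 (AT4G20980) for the other 7, beside a median of 0.19 over all probe sets not at the floor on every array. The probe set of TIF3H1 could thus show a smaller difference than that of AT4G20980.

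The partners of eIF3 in the 43S complex, eIF1, eIF1A, eIF2 and eIF5, were listed as 12 genes, of which 8 had a named probe set. As with all probe sets, none of the 8 passed the threshold. In eif3k 6 were higher and 2 lower, with a median difference of 0.17 and a range from -0.11 to 0.30. Among all probe sets not at the floor on every array, 48.2% were higher in eif3k. Whether the list as a whole leans to 1 side was not tested. AT1G77840, a gene for eIF5, the factor that stimulates GTP hydrolysis by eIF2, had log2 signals of 7.77, 7.84 and 7.74 in eif3k, against 7.42, 7.65 and 7.62 in WT. The groups did not overlap, as in the 2.71% of all probe sets that were higher on every eif3k array. Its difference was 0.22 (SE 0.07, 95% interval 0.02 to 0.42), with an unadjusted limma p of 0.0373 and an adjusted p of 1. No other of the 8 had an unadjusted p under 0.05, a level at which 1.48% of all probe sets were higher in eif3k. AT1G54290, a gene for eIF1, which guards start codon choice, differed by 0.25 (limma, unadjusted p = 0.276, adjusted p = 1).

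For the complexes that share the PCI and MPN domains, few genes had a named probe set. Of 12 genes of the 26S proteasome lid, 5 were matched. Like every other probe set, none passed the threshold. In eif3k 3 were higher and 2 lower, and the median difference was 0.09 in a range from -0.18 to 0.27. The lowest unadjusted p was that of AT5G45620, a gene for the PCI subunit RPN9, at -0.18 (SE 0.08), followed by AT4G24820, a gene for the PCI subunit RPN7, at 0.27 (SE 0.22), each with a limma adjusted p of 1. Of 10 genes of the COP9 signalosome only CSN5B, which encodes the MPN subunit that carries the catalytic site, was matched. Its difference was -0.15 (limma, adjusted p = 1), on dim signals between 3.25 and 3.67, not far above the floor of 2.25.

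**Figure D4:**
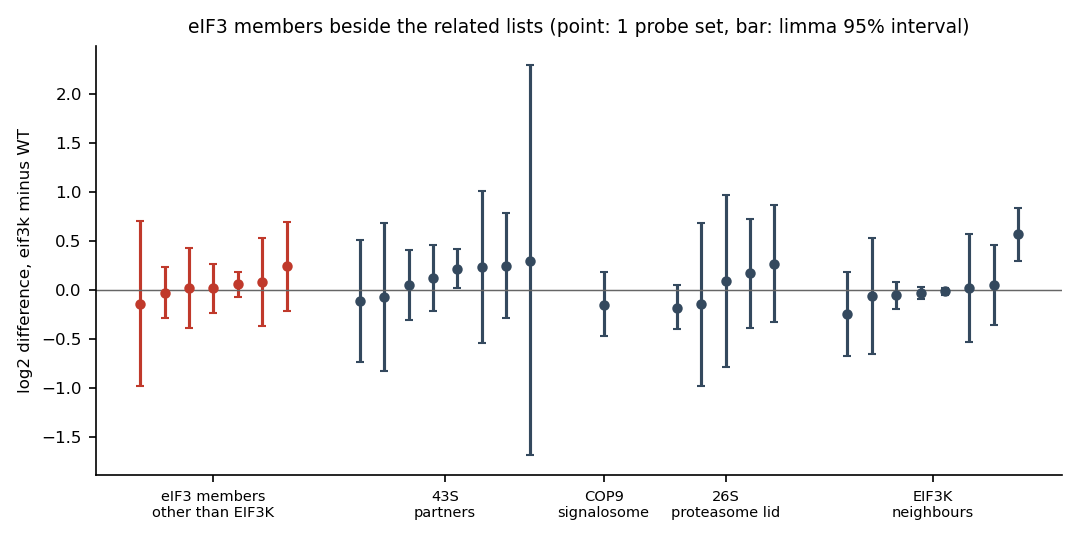
Genotype difference (log2, eif3k minus WT) of the 7 eIF3 members other than EIF3K above the floor (red) and of the related lists (blue). Each point is 1 probe set with its limma 95% interval, ordered by size within a list, and 3 neighbour probe sets at the floor on all arrays are left out. The 43S partners range from -0.11 to 0.30, the proteasome lid from -0.18 to 0.27, CSN5B is at -0.15, and the neighbour farthest from 0 is FLDH at 0.57.

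Because the T-DNA lies in EIF3K, the genes beside it on chromosome 4 were examined as well. The 5 nearest genes with a named probe set on each side were taken in RefSeq order (assembly TAIR10.1), which gave 10 genes and 11 probe sets, the closest of them being 3 genes away on either side. Only 4 of the 11 reached a signal of 3, and none passed the threshold, as was true of all probe sets. The median difference of the 4 was -0.02, and over all 11 probe sets it was 0.00 in a range from -0.24 to 0.57.

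FLDH (AT4G33360), which encodes a farnesol dehydrogenase and lies 12 genes beyond EIF3K, had log2 signals of 6.59, 6.62 and 6.79 in eif3k, against 6.02, 6.27 and 6.00 in WT. Each mutant array was above each WT array, as in 2.71% of all probe sets. The means were 6.67 ± 0.11 in eif3k and 6.10 ± 0.15 in WT (SD, n = 3 each), and the difference was 0.57 (SE 0.10, 95% interval 0.30 to 0.84), with pairs at 0.57, 0.35 and 0.79. The unadjusted limma p was 0.00381 and the adjusted p was 1, and no other neighbour probe set had an unadjusted p under 0.05, a level that 1.48% of all probe sets reached with eif3k higher. The other neighbours with a signal of 3 or more were AT4G33180 at -0.24, SLOMO, which encodes an F-box protein, at -0.06 and XI-I, which encodes a myosin motor, at 0.02 (limma, adjusted p = 1 for each). AT4G33180 has a second probe set, which lay near the floor and differed by -0.03. AT4G33230, AT4G33290 and AT4G33370 were listed at the floor on all 6 arrays, and AT4G33170, AT4G33280 and AT4G33310 stayed under a signal of 3.

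The probe sets whose course over the 6 arrays was most like that of EIF3K were sought among 14012 probe sets that name 1 gene. Likeness was the root mean square difference between the deviations of each probe set from its own 6-array mean and those of EIF3K, whose own deviations had a root mean square of 1.03. The closest was AGL87 (AT1G22590), a MADS-box gene, at 0.36. Its log2 signals were 5.25, 5.98 and 5.86 in eif3k, against 7.37, 7.43 and 7.48 in WT. Every mutant array was below every WT array, and its difference was -1.73. AT3G55710 followed at 0.52 with a difference of -1.20, and AT4G25780 at 0.63 with a difference of -1.07. These genes were picked for this likeness, so their differences are given without a test. No other eIF3 member was among them. By this measure a close match needs a genotype difference near that of EIF3K, which the other members lacked, so their absence adds nothing.

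The differences of EIF3K and AT4G20980 were followed through all settings tried. The EIF3K difference stayed between -2.28 and -1.98 over 13 settings other than leaving out an array, and between -2.25 and -1.80 when each array was left out in turn. Its limma p adjusted over the probe sets tested ranged from 0.219 to 1 over the 13 settings and from 0.371 to 1 with an array left out, above 0.05 throughout. The AT4G20980 difference ran from -0.17 to 0.22 over the 13 settings and from -0.34 to 0.19 when an array was left out.

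**Figure D5:**
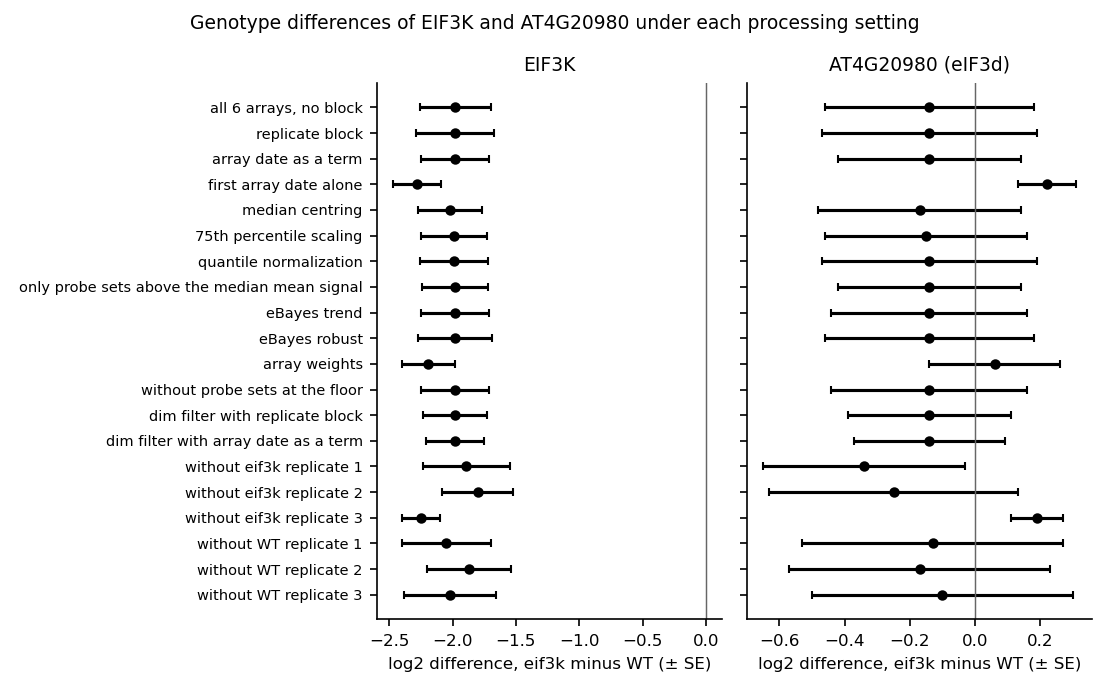
Genotype difference (log2, eif3k minus WT, ± SE) of EIF3K on the left and of AT4G20980 on the right under each setting, with separate scales. EIF3K lies between -2.28 and -1.80 in all rows, and AT4G20980 lies above 0 on the first array date alone (0.22), with array weights (0.06) and without eif3k replicate 3 (0.19).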

How the data were processed

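The authors deposited log2 signals made with GCRMA (submitters' processing notes, version not given). The study itself analysed RMA values. GCRMA takes off a background modelled from probe sequence and quantile-normalizes arrays. Dim probe sets thus lie at or near a floor, and a shift of all transcripts in a genotype would be removed. Of 22810 probe sets, 64 controls were left out. The platform annotation named 14016, the study's supplement a further 545, and 8185 were unnamed. Where both named a probe set (891), 846 shared a locus.

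Groups and replicate numbers are those of the labels. The test was limma 3.58.1 under R 4.3.3 (lmFit, eBayes, 2-sided, Benjamini-Hochberg over all 22746 probe sets), with calls at an adjusted p under 0.05 and at least 2-fold. The code was also run on simulated data. Those data held no array date effect, so that run cannot show how the test behaves with the date differences seen here. The p-values measure the spread between 3 arrays a group, whose number limits the precision. Permutation tests used scipy 1.17.1. The members and lists were chosen with earlier results of these data known. Genes named were all members, the neighbours of EIF3K, the 2 list members of smallest unadjusted p, and the 3 probe sets most like EIF3K.

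Across probe sets, same-numbered arrays had correlations of 0.247, 0.378 and 0.542 in their deviations from the genotype mean. The main fit used no pairing. The replicate numbers served only for the replicate block and the differences of same-numbered pairs, which are descriptive. Unlike numbers within the first date correlated as much (0.308 and 0.395), so beyond the date they share, no pairing is seen. The term for genotype by date assumes that the single later array of each genotype varies like the others. Alternatives were the replicate block, array date, the first date alone, scaling, filters on dim probe sets, variance priors, array weights and leaving out each array.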

Additional observations from a re-analysis of the deposited data

Results flagged for a closer look

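AT4G20980, an eIF3d gene, was marked because its genotype difference had opposite signs on the array dates. Both pairs of the first date were higher in eif3k, by 0.27 and 0.17, and the pair of the later date was lower, at -0.85. The difference between the dates was -1.07 (SE 0.16), with an unadjusted limma p of 0.0131 and an adjusted p of 0.175, so it did not pass the threshold over all probe sets. It rests on eif3k replicate 3, at 6.88, against 7.94 and 7.76 on the other mutant arrays and 7.59 to 7.73 in WT. The ribosomal RNA control was also lowest on that array, at 8.13, and its part was not tested. Without that array the genotype difference was 0.19, against -0.14 with all arrays.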

How the results depend on the processing

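The sign of the EIF3K difference held under every alternative run, and at no time did an eIF3 member, a neighbour or a gene of the related lists pass the threshold. With the replicate block EIF3K was at -1.98 (SE 0.31; limma adjusted p = 0.864), and the block changed no call. The count of all probe sets past the threshold was 0, and it was 1 when dim probe sets were left out and array date was a term. That combination was chosen after seeing the data, and the cause was not tested. By adjusted limma p alone, 2 probe sets were under 0.05 without eif3k replicate 3 and 1 without WT replicate 3. With the fold criterion the count was 0 in both of these settings. At an unadjusted limma p under 0.05 there were 694 probe sets, and 1089 with the replicate block, 1196 with array date as a term and 1216 on the first date alone. The median difference of the other members ranged from -0.01 to 0.05, and from -0.02 to 0.10 with an array left out. EIF3K relative to that median ranged from -2.35 to -1.83 with an array left out.

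Signs turned for 5 of the other members, and for each the cause was not tested. On the first date alone EIF3G1 was at 0.01, AT1G66070 at -0.02 and AT4G20980 at 0.22. With array weights EIF3G1 was at 0.01 and AT4G20980 at 0.06. With median centring AT3G02200 was at -0.01 and AT5G44320 at -0.02. With each array left out in turn, EIF3G1 ranged from -0.07 to 0.05, AT3G02200 from -0.10 to 0.13, AT1G66070 from -0.08 to 0.17, AT4G20980 from -0.34 to 0.19 and AT5G44320 from -0.06 to 0.10. TIF3H1, from 0.03 to 0.11, and AT5G15610, from 0.10 to 0.35, stayed positive. Without eif3k replicate 3, TIF3H1 was at 0.11 (SE 0.03) with an unadjusted limma p of 0.034. In that fit 876 of 22746 probe sets had an unadjusted p under 0.05, and TIF3H1 did not pass the adjusted threshold. Signals at the floor limit TIF3C2, for which no alternative gives a value.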
